A study of Bos taurus with 6 samples.

Results

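Respiratory complex I, or NADH:ubiquinone oxidoreductase, is the entry point of the mitochondrial electron transport chain. It is an L-shaped enzyme. The peripheral arm reaches into the mitochondrial matrix, where it takes electrons from NADH and passes them along a flavin and a row of iron-sulfur clusters to ubiquinone. The membrane arm uses the energy to pump protons across the inner membrane, and the resulting gradient drives ATP synthesis. Core subunits carry out the catalysis, accessory subunits surround and stabilise them, and assembly factors build the enzyme without staying in it. The nuclear genes of most of these proteins carry names that begin with NDUF, and the hydrophobic core of the membrane arm is encoded in mitochondrial DNA. In growing ovarian follicles mitochondria supply ATP and are also the site where steroid synthesis begins.

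The genes described here are those whose symbol in the array's probe annotation begins with NDUF. The rule found 41 of the 15207 genes named on the array, measured by 62 of its 43753 probes. All 62 passed the filter on dim probes that kept 31957, and 52 of the 62 exceeded the negative controls in both channels on every array. The other 10 were below them in the red channel of at least 1 array, and 2 of these, the NDUFA4L2 probe and 1 NDUFA10 probe, on all 6. The genes comprise 6 core subunits, 9 accessory subunits of the peripheral arm and 20 of the membrane arm, the acyl carrier NDUFAB1 that sits in both arms, 3 assembly factors, and the NDUFA4 and NDUFA4L2 pair. NDUFA4 carries the name of complex I for historical reasons and is now regarded as a subunit of complex IV. Symbols for NDUFAF2, NDUFAF5, NDUFAF6 and NDUFAF8 and for the mitochondrially encoded subunits were not matched among the annotated probes, and these genes were not analysed here.

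RNA came from 3 superstimulated and 3 non-superstimulated cows, measured on 6 two-colour arrays. Superstimulation is a series of gonadotropin doses that makes many follicles grow together. By the labels all animals were multiparous beef cattle, and gonadotropins are entered as the ovarian stimulation of both channels, so the labels do not say how the reference cows were treated otherwise. No genotype, age, dose or time is given, and no tissue is named beyond samples that were dissected and snap frozen. Cows with the same number, 1 to 3, were hybridised together once on slide 1 and again with exchanged dyes on slide 2, so a pair of cows was 1 replicate and n was 3 pairs. Slide and dye orientation cannot be told apart. The labels name 3 different animals per group. RNA was amplified in 2 rounds before labelling.

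Median intensities of the tested probes were 176 to 330 in red (Cy5) and 191 to 316 in green (Cy3), and the arrays of pair 3 were the brightest in red, at 249 and 330. Of all probes, 47.3% to 63.2% exceeded the negative controls in red and 65.4% to 71.2% in green, against 53 to 60 and 61 to 62 of the 62 NDUF probes. Precision is limited by how few arrays there were. The direction of the ratios is not settled. The dye fields place the superstimulated cow in Cy5 on slide 1, and the worked example in the design text places it in Cy3, which would exchange the group names and turn every sign given here. All ratios are log2 of superstimulated over non-superstimulated by the dye fields. Arrays of the same orientation and different pairs correlated at 0.14 to 0.24 over all probes.

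The cow labelled non-superstimulated 3 stood apart over the whole array. Levels per cow were separate-channel log2 intensities, and over all tested probes this cow was the highest of the 6 for 32.4% and the lowest for 26.2%, against 11% to 20.2% for any other cow in either direction. Under the design text this animal would be the superstimulated cow of its pair. Pair 1 repeated poorly between its dye-swapped arrays: their ratios correlated at 0.04 over all probes, against 0.72 in pair 2 and 0.57 in pair 3. Among the 62 NDUF probes, which share these arrays, the same correlations were -0.13, 0.67 and 0.74.

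Between superstimulated and non-superstimulated cows, 0 of the 62 NDUF probes passed an adjusted p of 0.05 in limma's test of the 3 pair means, against a background of 0% of all probes tested. The lowest adjusted p of any probe was 0.999. At an unadjusted p under 0.05 limma listed 3 NDUF probes, all with positive ratios, beside 3.25% of all probes and 1.52% with a positive ratio. The median ratio of the NDUF probes was 0.05, with 37 positive and 25 negative, and that of all probes was -0.01. With 3 pairs an exact two-sided sign-flip test cannot give a p below 0.25. The spread between pairs was wide for these genes: the median SD over the 3 pairs was 0.51 for NDUF probes and 0.20 for all probes. Levels of superstimulated and non-superstimulated cows overlapped for all 41 genes at their brightest probe, whereas they did not overlap for 5.36% of all probes. In bulk RNA, fewer cells of a type and less RNA per cell cannot be told apart.

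The 3 probes at the lowest unadjusted p belonged to NDUFA13 and NDUFB9, both of the membrane arm. NDUFA13, also known as GRIM-19, is an accessory subunit first studied in interferon and retinoic acid induced cell death. Its log2 levels were 10.44, 10.80 and 10.83 in superstimulated cows 1 to 3 and 9.93, 10.57 and 10.57 in the non-superstimulated ones. The superstimulated cow was the higher one in every pair, and the groups overlapped because superstimulated cow 1 lay below non-superstimulated cows 2 and 3. The ratios were 0.51, 0.23 and 0.26, a mean of 0.33 ± 0.15 (SD, n = 3 pairs), with an unadjusted p of 0.032 and an adjusted p of 0.999 by limma. NDUFB9, an accessory subunit of the LYR protein family, had levels of 11.38, 11.65 and 11.02 in superstimulated cows and 11.22, 11.15 and 10.21 in the others. Non-superstimulated cow 3 was the lowest, and the groups again overlapped. Its ratios were 0.17, 0.50 and 0.82, a mean of 0.49 ± 0.32 (SD, n = 3 pairs; unadjusted p = 0.045 by limma), and its other probe gave the same mean, 0.49.

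NDUFA2, a peripheral-arm subunit with a thioredoxin-like fold, had the second largest mean among the genes. Its levels were 11.36, 11.29 and 10.51 in superstimulated cows and 10.86, 10.87 and 9.05 in non-superstimulated cows. Superstimulated cow 3 lay below non-superstimulated cows 1 and 2, so the groups overlapped, but within each pair the ratio was positive. The ratios were 0.50, 0.42 and 1.46, a mean of 0.79 ± 0.58 (SD, n = 3 pairs; unadjusted p = 0.051 by limma). NDUFA2 (both probes), NDUFA13 and NDUFB9 (both probes) were the members with 1 sign on all 6 arrays, 5 probes or 8.06% against 5.5% of all probes. All 5 were positive, as 2.76% of all probes were. Over the 3 pair means, 17 NDUF probes (27.4%) kept 1 sign, beside 22.4% of all probes, and 12 of the 17 were positive.

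**Figure D1:**
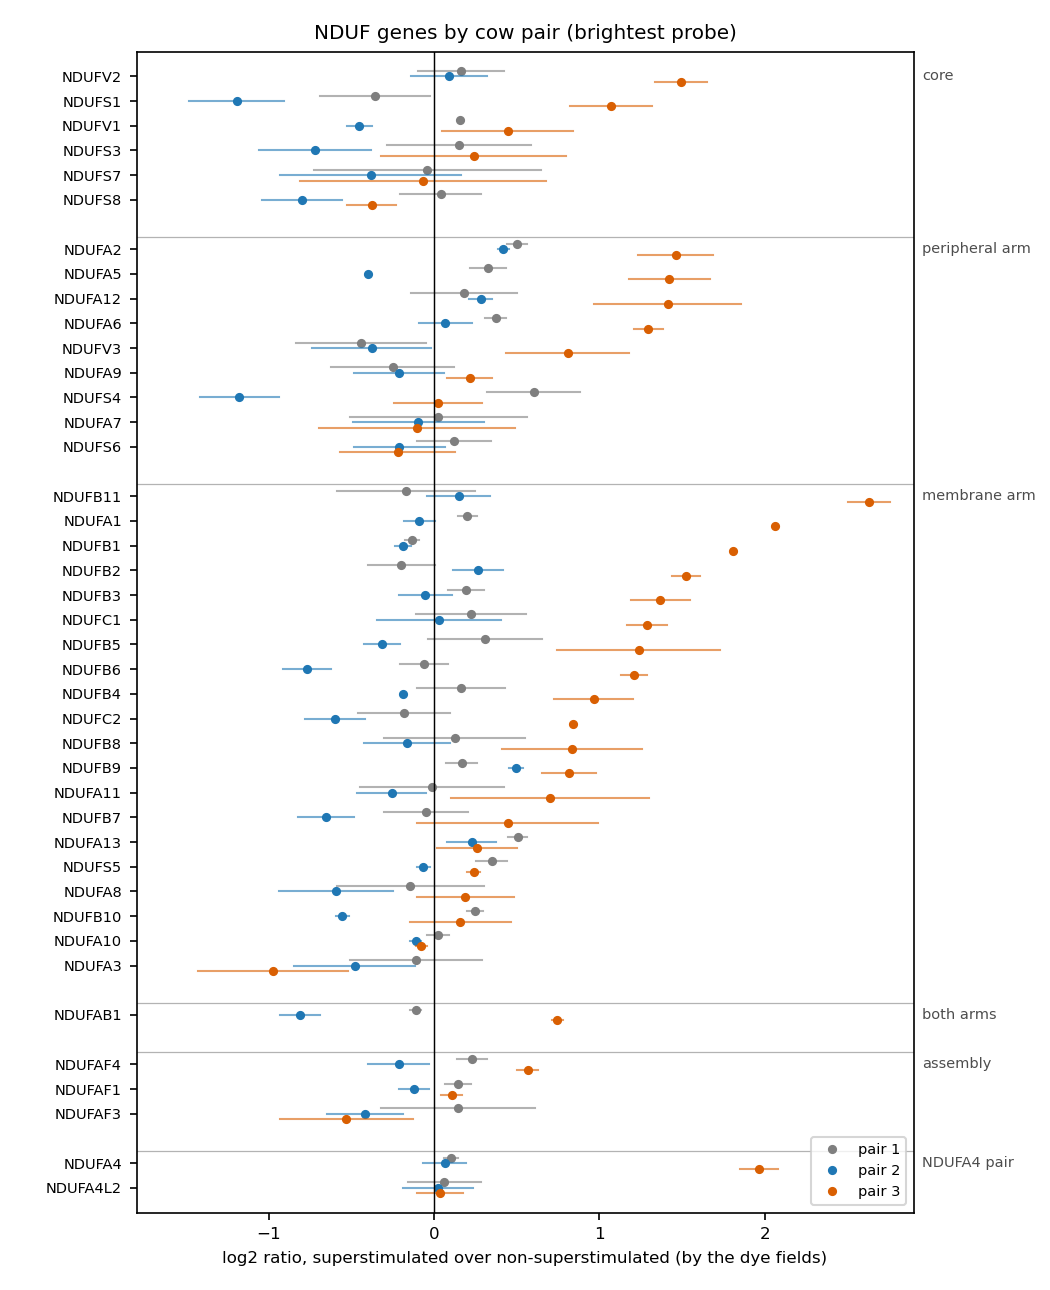
Log2 ratio of superstimulated over non-superstimulated (by the dye fields) for the 41 NDUF genes at their brightest probe, ordered by role. A point is the mean of a cow pair and the line through it joins its 2 dye-swapped arrays. Pair 3 lies to the right for 34 genes, up to 2.63 for NDUFB11, and pair 2 to the left for 30.

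What the pairs showed separately was larger than what they shared. Each pair was tested in a limma model that fitted the pairs and the dye over all 6 arrays. The error of a probe was pooled over the 3 dye swaps, which repeated unequally. No pair was therefore tested against the error of its own swap alone. Such a call, at an adjusted p under 0.05, speaks of 1 pair of cows only. In pair 3, 41 of the 62 NDUF probes were called, 37 positive and 4 negative, against 37.5% of all probes (21.4% positive and 16.1% negative). In pair 2, 28 were called, 4 positive and 24 negative, against 27.4% of all probes (12.5% and 14.9%). In pair 1, 4 were called, 3 positive and 1 negative, against 6.92% (2.65% and 4.27%). The total called in pair 2 exceeded its background less than the negative calls did: 24 of 62 is a larger share than 14.9%, and 4 of 62 a smaller one than 12.5%.

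The median NDUF ratio was 0.05 in pair 1, -0.23 in pair 2 and 0.54 in pair 3, and the medians of all probes were 0.00, 0.00 and -0.03. Positive ratios were found for 38, 14 and 50 of the 62 probes, beside 50.2%, 50.7% and 45.7% of all probes. Both arrays of the swap gave a positive ratio for 39 NDUF probes in pair 3 and a negative one for 6. In pair 2 the same counts were 7 and 33, and in pair 1 they were 19 and 5. The 2 arrays had the same sign, in either direction, for 57.3% of all probes in pair 3, 54% in pair 2 and 44.1% in pair 1. At least 2-fold ratios in pair 3 were positive for 19 probes and negative for 0, beside 5.94% and 3.83% of all probes. Pair 2 had 0 positive and 5 negative ones, beside 3.73% and 3.89%. The 5 were the 3 NDUFS1 probes and a probe each of NDUFS3 and NDUFS4. Over bright probes only, those above the controls in both channels on every array, the background of called probes was 29% positive and 27.6% negative in pair 3. In pair 2 it was 19.8% positive and 23.5% negative. The 52 bright NDUF probes had 34 positive and 4 negative calls in pair 3 and 4 and 22 in pair 2. At least 2-fold in pair 3 were 1506 positive and 1091 negative of 15878 bright probes, beside 19 and 0 of the 52. In pair 2 they were 926 and 1078, beside 0 and 5.

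The test of the difference between pairs itself called 45 of the 62 probes (72.6%), of 32 genes at their brightest probe, against 40.3% of all probes. Of the 52 bright NDUF probes it called 42 (80.8%), against 63% of all bright ones. The test compares the pairs beyond the pooled error of the swaps and is not a test over animals. The ratio was negative in pair 2 and positive in pair 3 for 36 NDUF probes, beside 23.4% of all probes. Of the NDUF probes called in both pairs, 13 had opposite and 8 equal signs. This split was not counted over all probes, so it has no background and nothing is read from it. Pair 3 lay above both other pairs for 42 probes, where 34.4% of all probes did so, and pair 2 lay below both for 48, where 30% did.

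**Figure D2:**
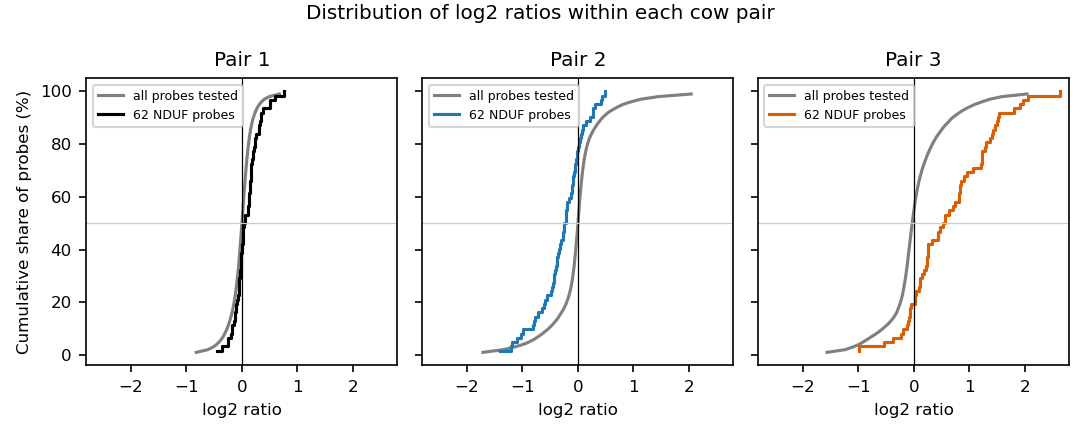
Cumulative share of probes (%) against the log2 ratio in each cow pair, for the 62 NDUF probes (coloured or black steps) and the bulk of all probes tested (grey, without the extreme percentiles). The NDUF median lies at 0.05 in pair 1, at -0.23 in pair 2 and at 0.54 in pair 3, while all probes centre on 0.

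Levels per cow showed which animals were low or high. Non-superstimulated cow 3 had the lowest level of the 6 for 26 of 41 genes (63.4%, beside 26.2% of all probes), with a median deviation of -0.79 from the gene's median over cows. Non-superstimulated cow 2 had the highest level for 17 genes (41.5%, beside 11%) and the lowest for 0. Superstimulated cow 1 was the highest for 11 (26.8%, beside 11.7%). The order held within each slide and dye: among the 3 non-superstimulated cows, cow 3 was the lowest for 30 genes in Cy3 on slide 1 and for 34 in Cy5 on slide 2, and cow 2 was the highest for 32 and 30. Over all probes cow 3 was the lowest of these 3 for 39.6% and 40.8%, and cow 2 the highest for 27.2% and 28.8%. Cow 3 was also the highest of them for 43.3% and 43.6% of all probes. Among superstimulated cows the order was looser, with cow 3 the lowest for 19 genes on slide 1 and 22 on slide 2. The shares of all probes beside these were 32.9% and 35%.

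**Figure D3:**
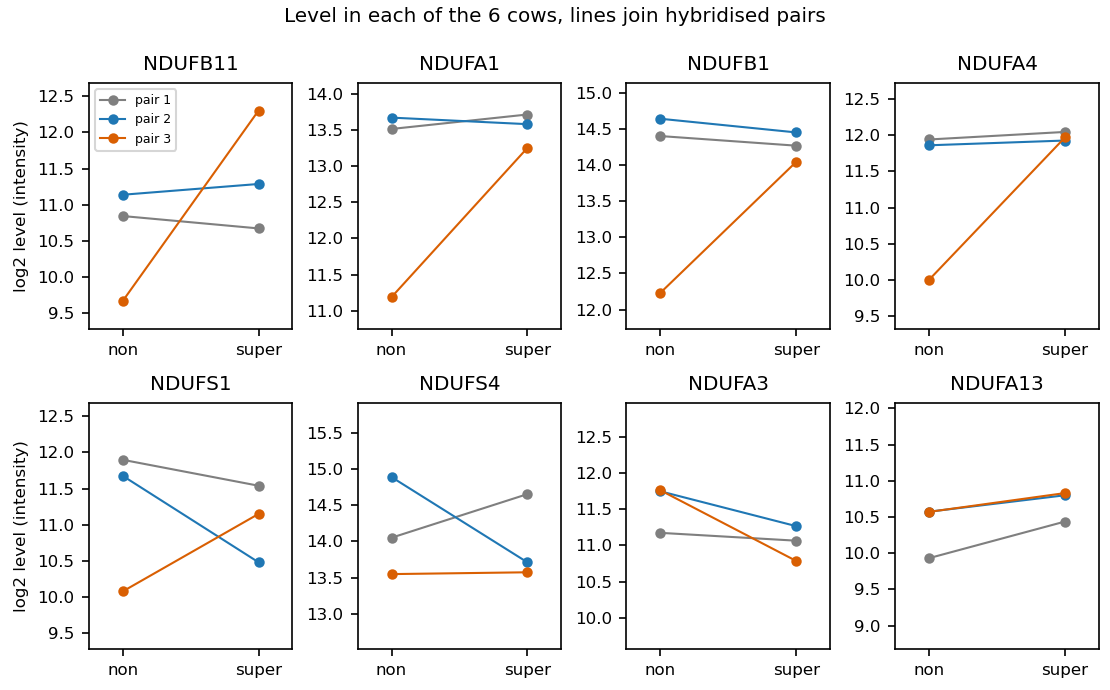
Log2 level (separate-channel intensity, mean of a cow's 2 arrays) in each of the 6 cows for 8 NDUF genes, with lines joining the cows hybridised together. In NDUFA1, NDUFB1 and NDUFA4 non-superstimulated cow 3 lies 2.06, 1.81 and 1.86 below the next cow, and in NDUFA3 it is the highest.

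The core subunits carry the flavin and the iron-sulfur clusters, and 13 probes measured 6 of them. Their median ratios were 0.00, -0.45 and 0.24 in pairs 1, 2 and 3. In pair 2, 9 of the 13 were called negative and 0 positive, beside 14.9% and 12.5% of all probes. In pair 3, 6 were called positive and 1 negative, beside 21.4% and 16.1%. The mean ratio of the core probes had a median of -0.15, with 11 of 13 negative. Probes of 1 gene are not independent, and NDUFS7 had 4 of the 13 and NDUFS1 3. By gene, at the brightest probe, the mean was positive for NDUFV1 and NDUFV2 and negative for the others. The 9 negative calls of pair 2 belonged to NDUFS1, NDUFS3, NDUFS7 and NDUFS8. NDUFS1, which holds several iron-sulfur clusters, was called in pairs 2 and 3. Its levels were 11.54, 10.48 and 11.15 in superstimulated cows 1 to 3 and 11.90, 11.68 and 10.08 in non-superstimulated cows. Superstimulated cow 2 and non-superstimulated cow 3 were both low, and the groups overlapped. The ratio was -1.19 in pair 2, a 2.29-fold difference (adjusted p = 7.9e-05 by limma against the swap error), and 1.07 in pair 3, a 2.10-fold difference in the other direction (adjusted p = 0.00012). In pair 1 it was -0.36 and was not called. All 3 NDUFS1 probes were negative in pair 2, at -1.19, -1.40 and -1.09, and positive in pair 3, at 1.07, 0.90 and 0.52.

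NDUFV2, which binds a cluster beside the flavin site, differed from NDUFS1 in pair 2. Its levels were 12.99, 13.33 and 12.98 in superstimulated cows and 12.82, 13.24 and 11.48 in the others. Only non-superstimulated cow 3 was low. The ratios were 0.16, 0.09 and 1.50, and that of pair 3 was 2.82-fold (adjusted p = 3.4e-05 by limma). Its partner NDUFV1, the NADH-binding subunit, had ratios of 0.16, -0.45 and 0.44, of which pair 3 was called (adjusted p = 0.042 by limma) and pair 2 was not (0.052). NDUFS3, a subunit between the clusters and the membrane arm, had 0.15, -0.72 and 0.24 at its brightest probe, with a call in pair 2 only. Its other probe had -0.06, -1.02 and 0.63 and was called negative in pair 2 and positive in pair 3. NDUFS7 and NDUFS8 bind the clusters nearest ubiquinone. NDUFS8 had 0.04, -0.80 and -0.38 and was called negative in pairs 2 and 3, the opposite of NDUFV2 in pair 3. NDUFS7 had -0.04, -0.38 and -0.07.

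At the brightest NDUFS7 probe the dye orientation moved the ratio more than the pair did. On slide 1 its ratios were -0.73, -0.93 and -0.81, and on slide 2 they were 0.64, 0.16 and 0.68. The next brightest NDUFS7 probe differed. Its pair ratios were 0.00, -0.43 and -0.13, with a call in pair 2, and its dye term of -0.12 was not called. Over the NDUF probes a dye term was called for 33 of 62, 30 of them negative, against 35.1% of all probes, with a median of -0.17 beside -0.01 for all probes. The dye term cancels in the mean of a swap. With 1 array alone the NDUF median was -0.17 and 0.26 in pair 1 (slide 1 and slide 2), -0.45 and -0.03 in pair 2, and 0.42 and 0.72 in pair 3. The median of pair 1 changed sign between slides, and those of pairs 2 and 3 kept theirs.

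The accessory subunits of the peripheral arm, 14 probes of 9 genes, had medians of 0.15, -0.15 and 0.53. In pair 3, 8 probes were called positive and 0 negative, beside 21.4% and 16.1% of all probes. In pair 2, 4 were called negative and 2 positive, beside 14.9% and 12.5% of all probes and 23.5% and 19.8% of bright ones. NDUFS4, a small subunit needed for a stable peripheral arm and a known site of Leigh syndrome mutations in humans, had the widest differences between pairs 1 and 2. Its levels were 14.65, 13.71 and 13.57 in superstimulated cows and 14.05, 14.89 and 13.55 in the others. Superstimulated cow 1 and non-superstimulated cow 2 were high, and both cows 3 were low and nearly equal. The ratios were 0.60, -1.18 and 0.03. Pair 1 was called positive (adjusted p = 0.0084) and pair 2 negative (adjusted p = 7.4e-05, 2.26-fold), both by limma. The other NDUFS4 probe had 0.76, -0.98 and 0.26, and its mean over pairs, 0.01, had the opposite sign to the -0.18 of the brightest probe.

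NDUFA12, NDUFA6 and NDUFA5 repeated the NDUFA2 pattern in pair 3. NDUFA12, a paralogue of the assembly factor NDUFAF2, had levels of 10.13, 10.45 and 9.50 in superstimulated cows and 9.95, 10.17 and 8.08 in the others, and ratios of 0.18, 0.28 and 1.41. NDUFA6, a LYR protein that binds the acyl carrier NDUFAB1, had ratios of 0.37, 0.07 and 1.30. NDUFA5 had 0.32, -0.40 and 1.42. In each of them non-superstimulated cow 3 had the lowest level, and the distance from it to the next cow was 1.41, 1.30 and 1.42 on the log2 scale. NDUFV3, a small subunit of the flavoprotein part, had -0.44, -0.38 and 0.81, with calls in all 3 pairs. Its dimmer probe, above the controls in red on 3 of 6 arrays, had -0.06, -0.03 and 0.26 with none. NDUFA7, NDUFA9 and NDUFS6 were called in no pair, and their ratios in pair 3 were -0.10, 0.21 and -0.22.

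Membrane-arm accessory subunits, 29 probes of 20 genes, had a median of 0.82 in pair 3, with 0.02 in pair 1 and -0.19 in pair 2. In pair 3, 20 of the 29 were called positive and 2 negative, beside 21.4% and 16.1% of all probes. At least 2-fold positive there were 10 of the 29, beside 5.94% of all probes. In pair 2, 9 were called negative and 2 positive, beside 14.9% and 12.5% of all probes and 23.5% and 19.8% of bright ones. NDUFB11, an X-linked subunit of the distal arm, had the largest ratio of any member. Its levels were 10.67, 11.29 and 12.30 in superstimulated cows and 10.84, 11.14 and 9.67 in the others. Superstimulated cow 3 was the highest and non-superstimulated cow 3 the lowest of the 6, and the other 4 cows lay between 10.67 and 11.29. The ratios were -0.17, 0.15 and 2.63. Pair 3 was 6.19-fold (2.51 and 2.76 on its 2 arrays, adjusted p = 1.4e-05 by limma), whereas the mean over pairs was 0.87 ± 1.53 (SD, n = 3 pairs; unadjusted p = 0.29).

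NDUFA1, another X-linked subunit that is essential for assembly of the membrane arm, showed a low value in 1 cow alone. Its levels were 13.71, 13.58 and 13.25 in superstimulated cows and 13.51, 13.67 and 11.19 in the others. The 5 cows other than non-superstimulated cow 3 lay within a log2 range of 13.25 to 13.71, and that cow lay 2.06 below the next. The ratio of pair 3 was 2.06 on each array, or 4.17-fold (adjusted p = 1.1e-05 by limma), and its second probe gave 1.92. Pairs 1 and 2 had 0.20 and -0.09. NDUFB1, one of the smallest subunits, followed the same order: 14.27, 14.45 and 14.04 in superstimulated cows and 14.40, 14.64 and 12.23 in the others. Again 5 cows were close to each other and non-superstimulated cow 3 was low, with ratios of -0.13, -0.19 and 1.81 (3.51-fold in pair 3, adjusted p = 1.6e-05 by limma).

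NDUFB2, NDUFB3, NDUFB5 and NDUFC1 also had ratios above 2-fold in pair 3, at 1.52, 1.37, 1.24 and 1.29. NDUFB2, a small subunit of the distal membrane arm, had -0.20 and 0.27 in pairs 1 and 2, and NDUFC1, a small subunit of the proximal arm, had 0.22 and 0.03. NDUFB6 had -0.06, -0.77 and 1.21 and was called in opposite directions in pairs 2 and 3. Its levels were 13.93, 13.64 and 14.01 in superstimulated cows and 13.99, 14.41 and 12.80 in the others, so non-superstimulated cow 2 was the highest and cow 3 the lowest. NDUFC2 had -0.18, -0.60 and 0.84 and was called in both pairs as well. NDUFS5, an intermembrane-space subunit with paired cysteine motifs, was called in none, at 0.35, -0.07 and 0.24. NDUFA13 was also called in no pair, and its pair 3 arrays were at 0.50 on slide 1 and 0.016 on slide 2. NDUFB4, NDUFB8 and NDUFA11 were called positive in pair 3 only, at 0.97, 0.83 and 0.70. NDUFA8 at its brightest probe and NDUFB10 were called negative in pair 2 only, at -0.59 and -0.56. The other NDUFA8 probe had 0.02, -0.35 and 0.32 and was called negative in pair 2 and positive in pair 3. NDUFB7, above the controls in red on 4 of 6 arrays, had -0.05, -0.65 and 0.45 and was called in pairs 2 and 3.

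NDUFA3 was the membrane-arm gene called negative in pair 3. This small single-pass subunit had levels of 11.07, 11.27 and 10.79 in superstimulated cows and 11.17, 11.75 and 11.76 in non-superstimulated cows. Non-superstimulated cow 3, the lowest cow for most NDUF genes, was here the highest, level with non-superstimulated cow 2, and superstimulated cow 3 was the lowest. The ratios were -0.11, -0.48 and -0.98, called negative in pair 2 (adjusted p = 0.0050) and pair 3 (adjusted p = 0.00018, 1.97-fold) by limma, and the second probe gave -0.07, -0.47 and -0.99. The mean was -0.52 ± 0.44 (SD, n = 3 pairs; unadjusted p = 0.075 by limma), and the groups overlapped.

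NDUFAB1, the mitochondrial acyl carrier protein, which serves fatty acid synthesis as well as complex I, followed NDUFB6. It had levels of 8.39, 8.21 and 8.39 in superstimulated cows and 8.50, 9.02 and 7.65 in the others. Superstimulated cows were alike, and non-superstimulated cows 2 and 3 lay above and below them. Its ratios were -0.11, -0.81 and 0.75, with limma calls in pairs 2 and 3 (adjusted p = 0.00076 and 0.00098).

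The assembly factors did not move as 1 group. NDUFAF1 and NDUFAF4 take part in building membrane-arm and quinone-module intermediates. NDUFAF1 had 0.14, -0.12 and 0.11 with no call, and NDUFAF4 had 0.23, -0.21 and 0.57 with a positive call in pair 3 (adjusted p = 0.0066 by limma). NDUFAF3, the partner of NDUFAF4, had the opposite sign to it in pair 3. Its levels were 12.53, 12.41 and 11.34 in superstimulated cows and 12.38, 12.82 and 11.87 in the others, with ratios of 0.15, -0.42 and -0.53. Both cows 3 were low for this gene, and the calls in pairs 2 and 3 were both negative (adjusted p = 0.025 and 0.0070 by limma). NDUFAF7, a methyltransferase of complex I assembly, was on the array under an older symbol outside the NDUF rule and had -0.33, -0.35 and 1.03.

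NDUFA4 had ratios of 0.10, 0.07 and 1.97. Its levels were 12.05, 11.93 and 11.97 in superstimulated cows and 11.94, 11.86 and 10.005 in the others, so 5 cows lay within a log2 range of 11.86 to 12.05 and non-superstimulated cow 3 lay 1.86 below the next. The ratio of pair 3 was 3.90-fold (adjusted p = 2.8e-05 by limma). Its paralogue NDUFA4L2, which is induced by hypoxia in other mammalian cells, was not above the negative controls in red on any of the 6 arrays. Its ratios of 0.06, 0.02 and 0.04 are those of a probe near background.

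The smallest ranges over the pairs belonged partly to dim probes. NDUFA7 had ratios of 0.03, -0.10 and -0.10 with both channels above the controls on every array. NDUFA10, a subunit that resembles nucleoside kinases, had 0.02, -0.11 and -0.08 at its brightest probe, and its 2 other probes were above the controls in red on 3 and 0 of the 6 arrays. NDUFS6, which binds zinc, had 0.12, -0.21 and -0.22 and was above them in red on 5. Of the 16 genes measured by several probes, NDUFA10, NDUFA7, NDUFS4 and NDUFV3 had means that differed in sign between probes. The means of the 2 probes differed by 0.022 in NDUFA2, by 0.013 in NDUFA3 and by 0.0016 in NDUFB9.

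Other complexes of the respiratory chain shared the order of the pairs. Complex II passes electrons from succinate, complex III passes them to cytochrome c, complex IV reduces oxygen, and complex V makes ATP. Over 60 probes of 41 genes, medians were 0.01, -0.12 and 0.70 in pairs 1, 2 and 3. In pair 3, 42 were called positive and 3 negative, beside 21.4% and 16.1% of all probes and 29% and 27.6% of bright ones. In pair 2, 5 were called positive and 20 negative, beside 12.5% and 14.9% of all probes and 19.8% and 23.5% of bright ones. The test between pairs called 47, beside 40.3% of all probes and 63% of bright ones. Non-superstimulated cow 3 was the lowest of the 6 cows for 28 of the 41 genes, beside 26 of 41 NDUF genes. No test was made of a difference between these genes and the NDUF genes.

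By complex, pair 2 medians were -0.67 for complex II (7 probes), -0.23 for III (9), 0.02 for IV (20) and -0.09 for V (24), and those of pair 3 were 0.49, 0.36, 0.81 and 0.86. COX4I1, a regulatory subunit of complex IV, had 0.31, 0.60 and 0.97 (unadjusted p = 0.024 by limma, not past the adjusted threshold). ATP5MC1 and ATP5MC2 encode the rotating ring of complex V. ATP5MC1 had -0.40, -0.48 and -0.19 and ATP5MC2 -0.20, -0.33 and -0.71, negative in every pair, as NDUFA3 was.

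**Figure D4:**
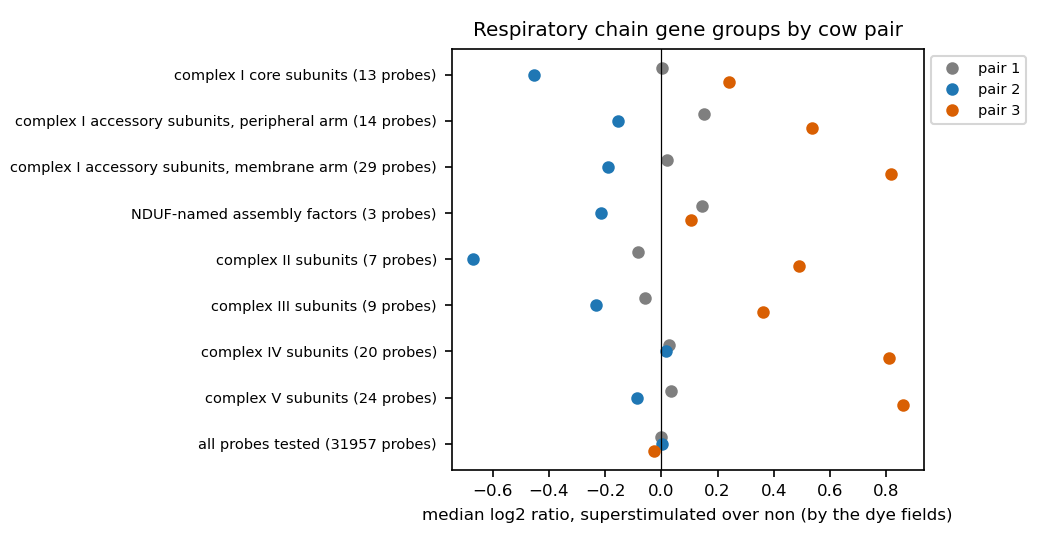
Median log2 ratio in each cow pair for the complex I role groups, complexes II to V and all tested probes. Pair 3 lies at 0.82 for the membrane-arm subunits and at 0.86 for complex V, and pair 2 at -0.45 for the core subunits and at -0.67 for complex II.

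Assembly factors without an NDUF name, 9 genes of 14 listed, had medians of 0.01, -0.48 and 0.29. In pair 2, 5 were called negative and 1 positive, beside 14.9% and 12.5% of all probes. In pair 3, 5 were called positive and 0 negative, beside 21.4% and 16.1%. TMEM126A, a membrane protein of complex I assembly, had 0.22, -0.48 and 1.53, and NUBPL, which delivers iron-sulfur clusters to the core, had -0.36, -0.53 and 0.43. TMEM186 had 0.11, 0.55 and 0.29. The regulators of respiratory genes, 19 probes of 11 genes, had medians of -0.02, -0.04 and 0.13, with 6 called positive and 4 negative in pair 3. The shares beside these counts were 21.4% and 16.1% of all probes and 29% and 27.6% of bright ones. NRF1 encodes a transcription factor of many respiratory genes, and its ratios were 0.06, -0.04 and -1.06. The value of pair 3 differed between its arrays, at -0.19 and -1.92, and the dye term of NRF1 was called. The ratios of TFB2M, a mitochondrial transcription factor, were 0.13, 0.48 and 0.43.

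Markers of the cell types the samples could hold were read beside these values. Of 12 granulosa markers, 11 were kept and 10 were above the controls on all arrays. Their summed levels were 117131 to 159570 in superstimulated and 85255 to 143231 in non-superstimulated cows, with medians over genes of 0.11, -0.17 and 0.25 in pairs 1 to 3. Over their 16 probes the medians were 0.32, -0.15 and -0.03, so the sign in pair 3 depended on the count by gene or by probe. In that pair 5 of the 16 were called in each direction, beside 21.4% positive and 16.1% negative of all probes. Of bright probes, 29% were called positive and 27.6% negative there, and 13 of the 16 were bright. All 10 theca and stroma markers were kept, and 7 were above the controls on all arrays. Their sums were 13335 to 29043 in superstimulated and 5550 to 10786 in non-superstimulated cows, which did not overlap. The list's medians over genes were nevertheless 0.10, 0.09 and 0.05, with 6 of 11 probes positive and 5 negative in pairs 2 and 3, so the sums differed through some members. Lumican (LUM), a matrix proteoglycan, had -0.06, 4.02 and 4.38, and the fibrillar collagen COL3A1 had 1.01, -0.45 and 3.10. Decorin (DCN) had 0.15, 2.30 and 0.30. In the other direction, smooth muscle actin (ACTA2) had -1.46 in pair 2 and the growth factor receptor PDGFRA had -1.11 in pair 3.

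Of 9 endothelium markers 6 were kept, of 6 red cell markers 4 and of 8 oocyte markers 5, and in each of these lists 0 were above the controls on all arrays. Of 9 leukocyte markers 6 were kept and 2 were above on all arrays, with sums of 3190 to 3542 in superstimulated and 2849 to 6518 in non-superstimulated cows. The leukocyte medians were -0.01, 0.01 and 0.04, and PTPRC, the common leukocyte antigen, was the 1 marker called in pair 3, at -1.02. The part of cell composition in the differences between pairs was not tested.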

How the data were processed

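Each deposited scanner file gives, per the file headers, the foreground and background intensity of every spot at 532 nm (green) and 635 nm (red), not yet background-corrected. The scanner software was not given in the sources used here. RNA was extracted with Trizol, amplified with T7 RNA polymerase and labelled chemically with Cy3 and Cy5, per the labels' protocols. A deposited table of log2 values served as an alternative. By its correlation with the scanner ratios (0.739 to 0.868 with the same array, at most 0.335 with another) it holds red over green, with column medians of -0.00433, -0.0115, -0.0348, -0.0110, -0.00625 and -0.00797; its normalization and centring are unknown.

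Of 45220 spots, 8 without a name and 42 marked as ignored were left out. Intensities were corrected with normexp (offset 50) and normalized within arrays by loess with controls at weight 0. Probes stayed in when 3 or more arrays showed them, in either channel, over the 95th percentile of 756 negative controls. Swapped arrays were turned and averaged, and 3 pair means were tested against 0 with lmFit and eBayes of limma 3.58.1 (R 4.3.3), with Benjamini-Hochberg adjustment over 31957 probes and a threshold of 0.05. Single pairs and their differences were tested in a model of 6 arrays. Aquantile after loess gave separate-channel levels per cow. Steps were tested on simulated data. Figures used Python 3.11.15 and matplotlib 3.10.9.

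Symbols came from the platform annotation, which can be old. Genes are described at their brightest probe. The named genes are the 10 with the largest mean ratio, the 6 with the smallest p for the group and for the difference between pairs, the 6 with the smallest range, the core subunits, NDUFA4 and NDUFA4L2, and those with probes of opposite sign. The remaining NDUF genes were added to complete the roles, after their values were seen, as were some members of the other lists. The members and lists were chosen with earlier results of these data known. Promoter sequences were not used here, so no motif search was made.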

Additional observations from a re-analysis of the deposited data

How the results depend on the processing

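The group comparison called 0 NDUF probes under every setting. With the cow pair as a replicate block it also called 0 (6 at an unadjusted p under 0.05), with 6 arrays as independent 0 (9) and with unpaired cows 0 (0). The counts over all 31957 probes at that unadjusted p rose and fell likewise, at 1901, 3072 and 565. Deviations of same-numbered cows from their groups had correlations of 0.20, 0.05 and 0.30 over all probes, and those of other cows -0.28 to 0.25; same-numbered cows share arrays, so these do not show matched animals.

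Leaving out a pair moved the median NDUF ratio between -0.08 (without pair 3) and 0.32 (without pair 2). That of complexes II to V moved between -0.04 and 0.35. The NDUF probes differing between pairs were 40 without pair 1, 36 without pair 2 and 36 without pair 3. The shares of all probes beside them were 29.6%, 30.6% and 33.2%. From the deposited log2 values, the count differing between pairs was 15 (background 10.3%), and those called in pairs 1, 2 and 3 were 0, 3 (all negative) and 18 (all positive), beside 3.6% of all probes negative in pair 2 and 6.04% positive in pair 3. The share in pair 2 was then near the background; the cause was not tested. Without loess, pair 1 had 7 calls (3 positive, 4 negative, beside 2.12% and 7% of all probes), pair 2 had 0 positive and 35 negative (9.95% and 18.7%), and pair 3 had 43 and 2 (26% and 12.7%). Pair 1 had 2 calls with an intensity trend. Pair 2 had 18 with 1 probe per gene, where 41 probes were tested in place of 62. The shares of all probes were not counted for the trend and for 1 probe per gene, so these counts have no background.

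Of 283 values of named genes under other settings, 24 reversed. NDUFV3 had 0.0029 with an offset of 16, 0.016 without loess and 0.37 on slide 2 alone. From the deposited values NDUFA4L2 had -0.064 and NDUFV1 -0.13. On slide 1 alone NDUFS4 had 0.080, NDUFA4L2 -0.15 and NDUFV1 -0.11. On slide 2 alone NDUFS1 had 0.13, NDUFA7 0.45, NDUFS6 0.18, NDUFS3 0.34 and NDUFS7 0.49. Leaving out a pair, means ranged from -0.011 to 1.39 for NDUFB11, -0.16 to 0.84 for NDUFB1, -0.41 to 0.58 for NDUFB6, -0.78 to 0.36 for NDUFS1, -0.28 to 0.20 for NDUFS3, -0.58 to 0.31 for NDUFS4, -0.15 to 0.30 for NDUFV1, -0.41 to 0.22 for NDUFV3 and -0.0073 to 0.13 for NDUFAF1. With the dyes of the design text, all 26 named genes change sign. Signal over background limits the 10 probes dim in red.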
